A study of Mus musculus with 30 samples.

Results

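Type I interferon-stimulated genes were followed across whole mouse lungs of 2 ages after inhaled bacterial endotoxin, mechanical ventilation, or both. The members are 43 genes, taken by symbol from a list of interferon-stimulated genes that leaves out the interferon regulatory factors and the antigen-processing genes. They were found on 74 of 45037 probe sets of the array, a probe set being the group of short DNA probes that reads 1 transcript. All 43 were among the 13089 genes tested, out of 18193 genes named. The 30 arrays each held RNA of 1 C57BL/6 mouse, 21 days old (juvenile) or 16 weeks old (adult). Control mice of each age were untreated and breathed spontaneously. MV mice were ventilated for 2 h at a tidal volume of 15 mL/kg, 80 breaths/min, 30% oxygen and an end-expiratory pressure of 2 cmH2O. LPS mice inhaled lipopolysaccharide of E. coli, aerosolized from 20 mL of a 0.1 mg/mL solution over 30 min in a sealed chamber, and then breathed spontaneously for 2 h. LPS+MV mice received the same aerosol and then the same 2 h of ventilation. Each group held 4 mice, except 3 for juvenile MV and 3 for juvenile LPS+MV. No study period is given for the controls, so a comparison of a treated group with controls also holds any effect of handling, and these cannot be told apart.

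Lipopolysaccharide binds Toll-like receptor 4, whose TRIF branch activates IRF3 and leads to interferon beta. Type I interferon then acts on its receptor IFNAR, through JAK1 and TYK2, to form a complex with STAT2 and IRF9 that binds the interferon-stimulated response element (ISRE) of its target genes. Many of these targets block the replication of viruses, and several are also induced by interferon gamma or directly by IRF3. In the lung they are made by epithelium, endothelium and resident and recruited leukocytes.

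Promoter sequence is shown for 5 members because they carry the best known element of this pathway and cover the main response classes: an antiviral RNA-binding protein (Ifit1), an antiviral enzyme (Rsad2), a chemokine (Cxcl10), a guanylate-binding protein (Gbp2) and an immunity-related GTPase (Irgm1). RefSeq promoters of build GRCm38.p6, running from 250 bases before to 50 after the transcript start, were matched to 31 of 43 members. Each line below gives the 250 bases before the start, 5′ to 3′ on the gene's own strand, at chr19:34640639-34640888 (plus strand) for Ifit1, chr12:26456453-26456702 (minus) for Rsad2, chr5:92348890-92349139 (minus) for Cxcl10, chr3:142620413-142620662 (plus) for Gbp2 and chr11:48871421-48871670 (minus) for Irgm1. Capitals mark matches to the ISRE core and, in Cxcl10, also an NF-kB motif further towards the start.

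Ifit1: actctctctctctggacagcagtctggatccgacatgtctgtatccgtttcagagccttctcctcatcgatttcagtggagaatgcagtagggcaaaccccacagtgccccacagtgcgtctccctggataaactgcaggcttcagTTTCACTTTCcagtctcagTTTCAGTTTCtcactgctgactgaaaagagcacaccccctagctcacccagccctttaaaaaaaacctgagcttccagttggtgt
Rsad2: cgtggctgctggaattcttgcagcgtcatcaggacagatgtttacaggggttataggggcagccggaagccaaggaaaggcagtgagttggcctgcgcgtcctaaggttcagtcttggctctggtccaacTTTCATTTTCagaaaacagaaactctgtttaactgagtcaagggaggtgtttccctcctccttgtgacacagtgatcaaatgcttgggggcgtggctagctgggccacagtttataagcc
Cxcl10: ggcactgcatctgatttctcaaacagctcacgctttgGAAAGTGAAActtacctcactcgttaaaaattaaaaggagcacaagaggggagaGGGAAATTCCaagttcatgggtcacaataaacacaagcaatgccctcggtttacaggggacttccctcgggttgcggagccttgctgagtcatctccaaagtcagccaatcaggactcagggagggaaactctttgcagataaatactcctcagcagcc
Gbp2: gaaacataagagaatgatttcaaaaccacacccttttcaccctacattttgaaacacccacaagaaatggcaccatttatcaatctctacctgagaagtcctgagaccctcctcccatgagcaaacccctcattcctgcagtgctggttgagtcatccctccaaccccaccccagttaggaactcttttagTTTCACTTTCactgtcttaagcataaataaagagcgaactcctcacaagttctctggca
Irgm1: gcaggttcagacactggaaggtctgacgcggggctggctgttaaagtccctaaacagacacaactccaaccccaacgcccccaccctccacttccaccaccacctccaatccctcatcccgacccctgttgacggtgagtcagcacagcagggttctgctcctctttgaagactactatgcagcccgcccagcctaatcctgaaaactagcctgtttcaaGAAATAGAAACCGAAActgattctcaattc

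The ISRE core was searched on both strands as GAAA, any 2 bases and GAAA, so its minus-strand matches read TTTC, 2 bases and TTTC as printed. Ifit1 held 2 matches, at bases -104 to -95 and -85 to -76 from the start, and Rsad2 held 1 at -120 to -111. Cxcl10 held its ISRE match at -213 to -204 and its NF-kB match, searched on both strands as GGGA, any 2 bases and TTCC, at -159 to -150. In Gbp2 the ISRE match lay at -59 to -50, and an NF-kB match lay past the start, outside the printed bases. Irgm1 held 2 overlapping ISRE matches between -30 and -15. Over the full windows, 15 of 31 members (48.4%) held an ISRE core, against 689 of 17492 genes with a promoter (3.94%). The GAS motif TTCNNNGAA, the element bound by STAT dimers, was found in 7 members (22.6%) and in 8.92% of all genes. The NF-kB motif was found in 4 members (12.9%) and in 1.64% of all genes, and Cxcl10 and Gbp2 were the 2 members with both it and an ISRE core. GAS matches overlapped an ISRE match in Bst2 and an NF-kB match in Ifit2. These are matches of letters and say nothing on their own about binding in these lungs.

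Several arrays stood apart for these genes. The mean log2(intensity + 32) over all 43 members was 7.3 to 7.62 on juvenile controls and 8.62 to 9.18 on juvenile LPS arrays, and 7.58 to 7.83 and 8.31 to 8.62 on the adult counterparts. Juvenile LPS replicate 2 was the lowest of its group for 40 of 43 members, and adult LPS replicate 1 for 33. In the juvenile LPS+MV group replicate 3 was the lowest for 30 members and replicate 2 the highest for 35. Adult LPS+MV replicate 3 was the highest of its group for 33. Juvenile MV replicate 2 was the highest of its group for 34 members, with Cxcl9, a chemokine for activated T cells, at an intensity of 170 against 15.1 and 9.55. Adult control replicate 3 had Cxcl9 at 171 against 11.8 to 15 on the other 3 adult controls. On juvenile MV replicate 2 the summed intensity of 9 T and NK cell markers was also high, at 2160 against 429 and 469 in its group. Between juvenile MV and control, group means differed most for Gzma (504 and 78.2) and Nkg7 (78.1 and 32.6). Those of the other markers differed less, such as Cd3e (113 and 95.7), Cd8a (34.5 and 36.4) and Cd4 (52.4 and 53.7). Results were therefore refitted without the 2 arrays with bright Cxcl9, a step chosen after the data were seen. Values are given below where it ended a call. The part of these cells in the values was not tested. High Xist, which marks female tissue, was seen on 4 of 4 adult MV and 3 of 4 adult LPS+MV arrays and on 0 of 4 adult controls and 0 of 4 adult LPS arrays, so sex and ventilation overlap in adults. In juveniles it was seen on 2 of 3 LPS+MV and 0 of 4 LPS arrays, so the same holds for LPS+MV against LPS there. The summed intensity of 5 alveolar type 2 cell markers was 42600 to 50600 over all arrays, while single ones moved, such as Abca3, a lipid transporter, with group means of 1350 in juvenile controls and 726 after LPS.

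**Figure D1:**
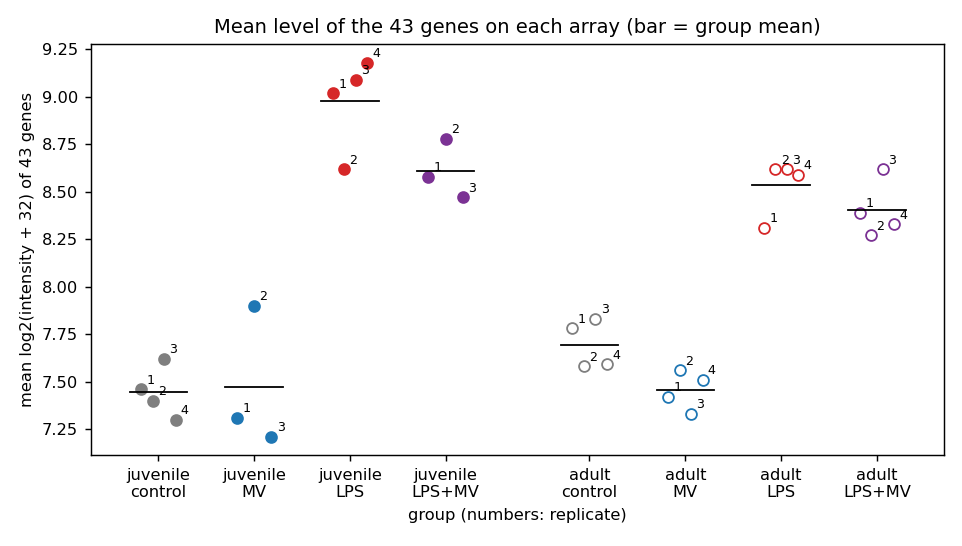
Mean log2(intensity + 32) of the 43 genes (vertical axis) on each of the 30 arrays, by group (horizontal axis), with replicate numbers beside the points and group means as bars; juveniles are filled and adults open. All LPS and LPS+MV arrays lie above all control and MV arrays of the same age, juvenile LPS replicate 2 and adult LPS replicate 1 are the lowest of their groups, and juvenile MV replicate 2, at 7.9, lies above both other juvenile MV arrays.

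In untreated lungs, adults had the higher level of 12 members and juveniles that of 2, with a median difference of 0.29 on the log2 scale. Values after ± are standard errors of the limma fit, and a gene passed when its p, adjusted by Benjamini-Hochberg over all 13089 genes, was under 0.05. Of all genes, 15.1% passed as higher and 10.1% as lower in adults, so the count of higher members, 12 of 43, stood above the background and that of lower ones below it. The clearest difference ran the other way. Rsad2, which encodes viperin, an enzyme that makes a chain-terminating nucleotide, had intensities of 1140, 1660, 1930 and 1650 on the juvenile controls. The adult controls read 454, 353, 671 and 569, lower on every array. The fitted difference was -1.59 ± 0.22 (limma, adjusted p = 6e-06). Isg20, an antiviral exonuclease, was the other gene with the lower adult level, at -0.58 ± 0.13. Members with the higher adult level included Zbp1, a sensor of left-handed nucleic acid (0.74 ± 0.15), Trim30a, a ubiquitin ligase (0.69 ± 0.15), and Parp14, an ADP-ribosyltransferase (0.54 ± 0.12). Groups did not overlap for any of these 3. Single control arrays ended 6 of these calls: Ifit3 without juvenile replicate 1 or 2 or adult replicate 1 or 3, Oasl2 without juvenile replicate 2 or 4 or adult replicate 3, and Usp18 without juvenile replicate 1 or 2 or adult replicate 1. Ifi47 lost its call without juvenile replicate 4, Lgals3bp without juvenile replicate 2, and Gbp2 without juvenile replicate 1, 2 or 4 or adult replicate 1 or 3. Adjusted p-values in these refits were 0.05 to 0.11. Without both arrays with bright Cxcl9, the calls of Ifit3 (adjusted p = 0.057) and Oasl2 (adjusted p = 0.054) ended.

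Inhaled LPS raised most of the genes at both ages. In juveniles 37 of 43 rose, 0 fell and 6 did not pass, with a median of 1.27, and 26 rose by at least 2-fold. Among all genes 9.58% rose, 13.3% fell, 1.89% rose by at least 2-fold, and the median lay close to 0. In adults 30 rose, 1 fell and 12 did not pass, with a median of 0.61 and 13 rising by at least 2-fold, against 12.9% of all genes rising, 23% falling and 2.02% rising by at least 2-fold. Of the genes that rose in adults, 29 (96.7%) also rose in juveniles, and these made up 78.4% of the juvenile set. This overlap was not counted over all genes, and 37 of 43 members rose in juveniles whatever their adult call. The juvenile and adult comparisons share no array. Values of control and LPS arrays did not overlap for 37 members in juveniles and 32 in adults, against 22% and 34.6% of all genes. In RNA from whole lung, a change in the number of cells of a type and a change in RNA per cell cannot be told apart.

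**Figure D2:**
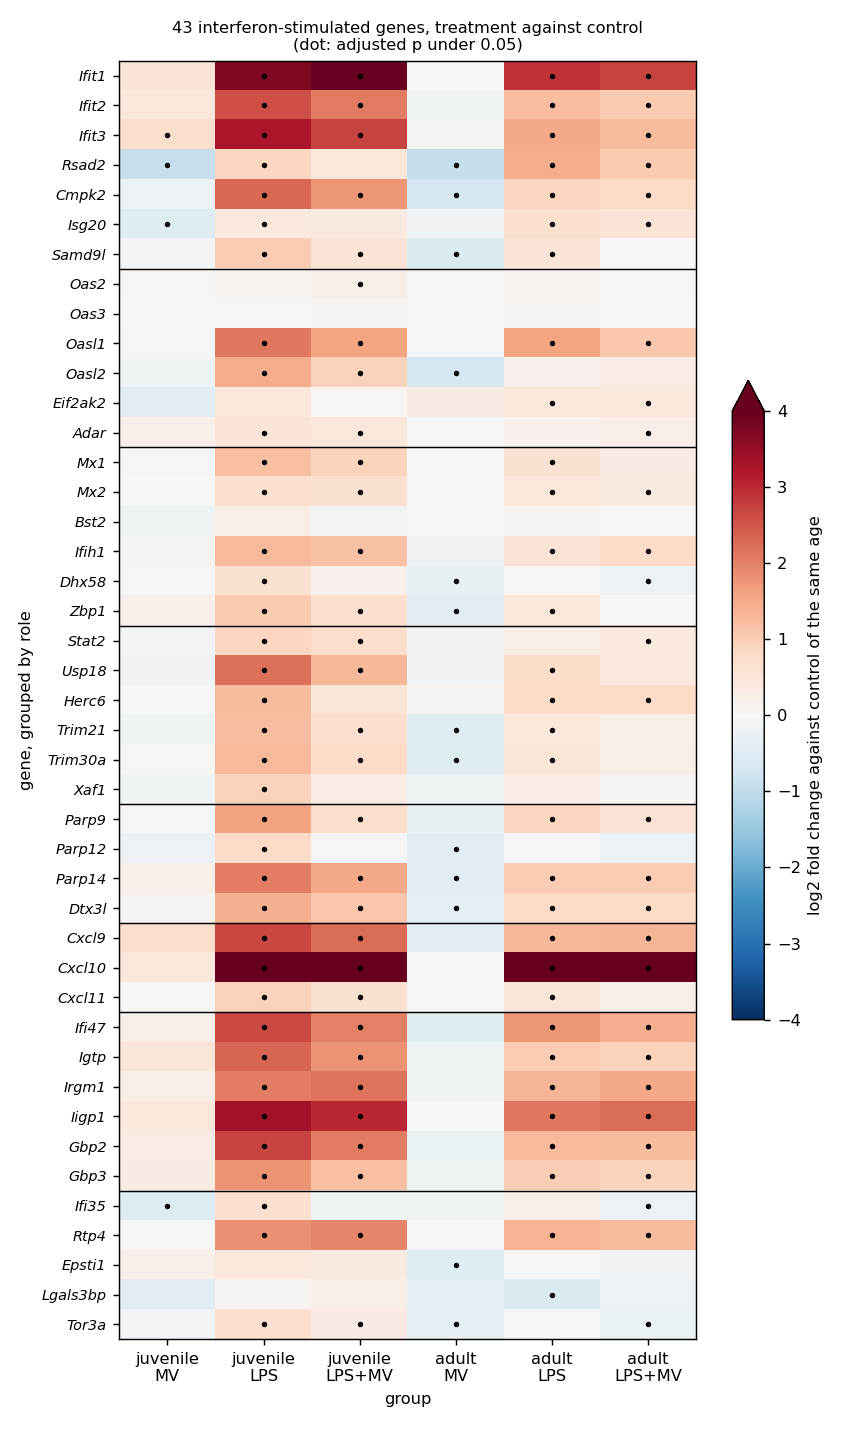
Log2 fold change (colour, on log2(intensity + 32)) of the 43 genes (rows, grouped by role) in the 6 treated groups against controls of the same age (columns); a dot marks an adjusted p under 0.05 and the colour scale ends at 4, which Cxcl10 exceeds. The LPS and LPS+MV columns are mostly red at both ages, and 13 members carry a dot for a lower level in adult MV.

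Among the IFIT proteins and other effectors that act on RNA or nucleotides, all 7 members rose with LPS at both ages (median 2.31 in juveniles, 1.23 in adults). Ifit1, which binds viral RNA that lacks cap methylation, read 116, 137, 198 and 149 on juvenile controls. The juvenile LPS arrays read 2700, 1430, 2610 and 2740. Every LPS array lay above every control, with replicate 2 well under the other 3, and the rise was 3.69 ± 0.20 (limma, adjusted p = 3.3e-14). In adults Ifit1 went from 173, 169, 172 and 133 to 1000, 1540, 1610 and 1500, again without overlap, a rise of 2.89 ± 0.20 (limma, adjusted p = 8.1e-12). Ifit3, a related protein of the same family, stood at 183, 210, 266 and 231 in juvenile controls and at 2410, 1530, 2660 and 2940 after LPS. The adult values were 410, 312, 388 and 327 against 676, 1470, 1240 and 1130. The groups did not overlap at either age, and the adult rise of 1.52 ± 0.20 was smaller than the juvenile one of 3.22 ± 0.20.

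Rsad2 kept a different balance between the ages. After LPS it read 3000, 2130, 3130 and 3320 in juveniles and 1010, 1600, 1720 and 1610 in adults, so the juvenile level was the higher one on every array. On this probe set the adult rise, 1.49 ± 0.22, was the larger estimate (0.85 ± 0.22 in juveniles). Its other kept probe sets rose by 1.39 and 1.46 in juveniles and, in the same order, by 1.37 and 1.78 in adults. Cmpk2, a mitochondrial nucleotide kinase, rose by 2.31 ± 0.20 in juveniles. Its adult rise was 0.85 on the probe set used, while its other kept probe set gave 0.23 and did not pass (limma, adjusted p = 0.38). In juveniles that other probe set rose by 1.63. Isg20 rose by 0.63 ± 0.13 in adults. Its juvenile rise of 0.39 lost its call without control replicate 1 or 2 or LPS replicate 1, 3 or 4, with adjusted p-values of 0.081 to 0.18.

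The oligoadenylate synthetases and double-stranded RNA enzymes were mixed. In juveniles 3 of 6 rose and in adults 2 of 6. Oasl1, a catalytically inactive family member that restrains translation of Irf7, rose from 21.2, 30.2, 30.4 and 30.5 to 219, 154, 261 and 300 in juveniles, a change of 2.11 ± 0.15. In adults it rose from 37.1, 29.3, 39.1 and 29 to 114, 177, 165 and 203, a change of 1.57 ± 0.15. Neither pair of groups overlapped. Oas2 and Oas3, which make the activator of RNase L, were dim on all arrays (35.2 to 63.8 and 12.6 to 26.7) and did not pass with LPS at either age. At such levels the array's background makes up much of the intensity, and a fold change on this scale understates that of the transcript.

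Of the Mx GTPases, tetherin and nucleic acid sensors, 5 of 6 rose in juveniles and 4 of 6 in adults. Ifih1, which encodes the double-stranded RNA sensor MDA5, read 280, 257, 331 and 235 in juvenile controls and 696, 620, 760 and 832 after LPS. The adult arrays read 398, 302, 336 and 312 against 427, 556, 561 and 544. The groups were separate at both ages, with rises of 1.30 ± 0.11 and 0.59 ± 0.11. Mx2, a gene of the Mx GTPase family, rose by 0.63 ± 0.08 in juveniles and 0.44 ± 0.08 in adults. Mx1, another gene of that family, was at 11.4 to 16.8 in juvenile controls and 37.7 to 94.9 after LPS. Its juvenile change of 1.19 became 2.33 with 1 in place of 32 added before the logarithm. Dhx58, the RIG-I-like receptor LGP2, rose in juveniles (0.61 ± 0.09, or 1.03 with 1 added in place of 32). In adults its values overlapped, at 38.5 to 54.2 in controls and 43.8 to 58.5 after LPS. Bst2, which encodes tetherin, a protein that holds budding virus at the cell surface, was at 346 to 375 in juvenile controls and 356 to 486 after LPS and did not pass at either age.

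All 6 genes of the group with the signal transducer, the deISGylase, the ubiquitin ligases and the apoptosis factor Xaf1 rose in juveniles, and 4 of 6 rose in adults. Usp18 removes the ubiquitin-like protein ISG15 from its targets and blocks signalling at IFNAR. It read 108, 103, 147 and 100 in juvenile controls and 623, 446, 737 and 781 after LPS. The adult values were 204, 167, 179 and 166 against 226, 311, 397 and 372. LPS arrays lay above controls at both ages, with a wide gap in juveniles and a narrow one in adults, and the rises were 2.19 ± 0.17 and 0.74 ± 0.17. Stat2, the STAT of the type I interferon complex, rose in juveniles by 0.87 ± 0.12. In adults it was at 44.2 to 57.6 in controls and 57.8 to 80.7 after LPS and did not pass.

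The PARP genes, ADP-ribosyltransferases of the antiviral response, and Dtx3l, the ubiquitin ligase that pairs with Parp9, all rose in juveniles. Parp14 stood at 143, 158, 153 and 121 in juvenile controls and at 788, 547, 676 and 791 after LPS, and at 251, 229, 197 and 215 against 454, 539, 508 and 441 in adults. The groups were far apart at both ages, with rises of 2.05 ± 0.12 and 1.02 ± 0.12. Parp12, which can inhibit translation, read 254, 233, 235 and 206 in juvenile controls and 397, 364, 451 and 468 after LPS. In adults it read 332, 274, 271 and 273 against 256, 286, 281 and 287. Juvenile groups were apart and adult groups overlapped, with values of 0.77 ± 0.10 and -0.04 ± 0.10, of which only the juvenile one passed.

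Among the chemokines that attract CXCR3-bearing T and NK cells, Cxcl10 showed the largest change of all 43 genes. Cxcl10 read 23.2, 16.2, 19.3 and 19.3 in juvenile controls and 4610, 2830, 5110 and 5320 after LPS. In adults it read 23.7, 28.3, 51.1 and 18.4 against 1490, 2470, 2360 and 2750. Both pairs of groups were separate, with rises of 6.41 ± 0.22 (limma, adjusted p = 2.3e-18) and 5.19 ± 0.22 (limma, adjusted p = 2.1e-16). Its promoter, printed above, was 1 of 14 among 17492 with both an ISRE core and the NF-kB motif. Cxcl9 rose by 2.68 in juveniles, from 12.5 to 14 in controls to 126 to 365. In adults its values overlapped because of control replicate 3, the rise was 1.33, and leaving out any 1 of the other 3 controls ended the call (adjusted p of 0.051 to 0.058). Cxcl11, at 13.5 to 18.7 in juvenile controls, rose by 0.93 ± 0.11 in juveniles and 0.48 ± 0.11 in adults, and by 1.84 in juveniles with 1 added in place of 32.

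All 6 interferon-inducible GTPases of cell-autonomous defence, which attack vacuoles that hold pathogens, rose at both ages (median 2.49 in juveniles, 1.34 in adults). Many of them are also classic targets of interferon gamma. Iigp1 read 342, 307, 556 and 208 in juvenile controls and 4150, 2920, 3730 and 4240 after LPS, and 565, 392, 559 and 311 against 1610, 2390, 2300 and 1970 in adults. The groups were separate, with rises of 3.36 ± 0.33 and 2.12 ± 0.33. Ifi47 reached about the same level at both ages, 1760 to 2710 in juvenile and 2040 to 2720 in adult LPS arrays, from controls of 210 to 505 and 578 to 894. Irgm1, a regulator of the other immunity-related GTPases, rose by 2.06 ± 0.22 and 1.37 ± 0.22. Without overlap in either, Gbp2 went from 226 to 296 in juvenile controls to 1520 to 2180, and from 390 to 583 to 1030 to 1400 in adults. The adult rise of Igtp lost its call without control replicate 2, control replicate 4 or LPS replicate 2 (adjusted p up to 0.071).

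Of the 5 other genes, 3 rose in juveniles, and in adults 1 rose and 1 fell. Rtp4, a chaperone of membrane receptors that also acts against viruses, read 397, 351, 595 and 342 in juvenile controls and 1620, 1120, 1620 and 1870 after LPS, and 564, 434, 520 and 419 against 1170, 1290, 1410 and 1400 in adults. The groups were separate, with rises of 1.82 ± 0.19 and 1.39 ± 0.19. Lgals3bp, a secreted glycoprotein, was the member that fell, from 551, 472, 545 and 403 to 325, 302, 280 and 365 in adults (-0.58 ± 0.16), and the groups did not overlap. In juveniles it stood at 227 to 372 in controls and 281 to 417 after LPS.

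**Figure D3:**
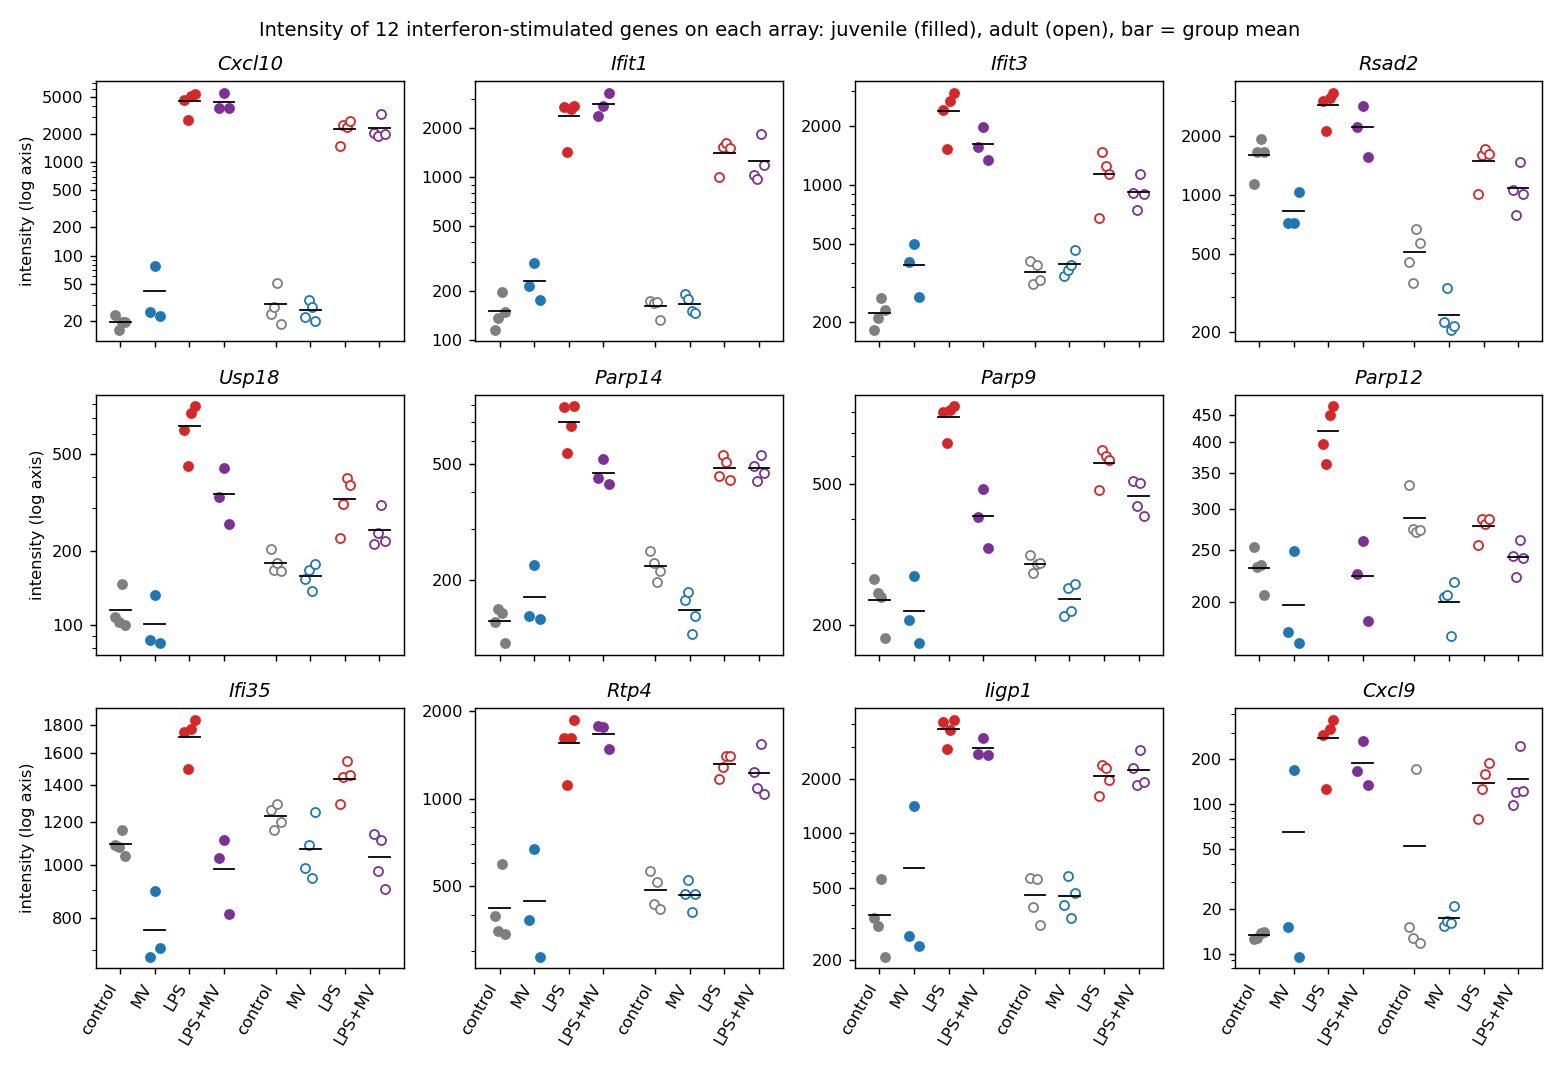
Intensity on a log axis of 12 of the genes on each array, by group (control, MV, LPS, LPS+MV; juveniles filled, adults open), with the group mean as a bar. Juvenile LPS arrays are the brightest for most of the 12 genes, Usp18, Parp9, Parp12 and Ifi35 drop from LPS to LPS+MV in juveniles, and for Cxcl10, Ifit1 and Rtp4 the LPS+MV arrays overlap the LPS arrays.

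Age changed the size of the response to LPS. The LPS fold change was the larger estimate in juveniles for 38 of 43 members, and the median of the age by LPS interaction, the adult minus the juvenile log2 fold change, was -0.69. It passed for 16 members, all with the smaller adult response, against 2.38% of all genes in that direction and 1.31% in the other. For 8 of these the adult response was smaller by at least 2-fold, against 0.252% of all genes. The juvenile LPS group had the brightest mean of the 8 groups for 34 of 43 members. Over all genes the median of the interaction was -0.02. Shares of all genes were not counted for the larger juvenile estimate or for the brightest mean.

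The members whose response differed with age came from several roles. The interaction was -1.69 ± 0.29 for Ifit3 (limma, adjusted p = 0.00093), -1.45 ± 0.24 for Usp18 (limma, adjusted p = 0.00067) and -1.03 ± 0.17 for Parp14 (limma, adjusted p = 0.00067). Ifit2, another IFIT protein (-1.35 ± 0.25), Cmpk2 (-1.46 ± 0.28) and Oasl2, an oligoadenylate synthetase-like protein (-1.32 ± 0.27), also passed. For these 6 genes both the control and the LPS values enter the difference: Usp18, Parp14 and Ifit3 had the higher adult control level and the lower adult LPS mean. Parp12 (-0.82 ± 0.15) and Tor3a, an ATPase of the endoplasmic reticulum (-0.70 ± 0.12), passed with adult LPS estimates of -0.04 for each. Ifih1 (-0.72 ± 0.15), Dhx58 (-0.53 ± 0.12), Parp9 (-0.73 ± 0.17) and Trim21, an antibody receptor and ubiquitin ligase (-0.80 ± 0.19), completed the set that no single array ended. The others did not hold in all refits with 1 array less. Cxcl10 (-1.22 ± 0.31) did not pass without juvenile LPS replicate 1, 3 or 4, adult control replicate 3 or adult LPS replicate 1 (adjusted p of 0.051 to 0.068). Stat2 (-0.64 ± 0.16) did not pass without both bright Cxcl9 arrays (adjusted p = 0.061), nor without juvenile control replicate 2, juvenile LPS replicate 1 or 4, adult control replicate 3 or adult LPS replicate 1 or 3 (0.052 to 0.069). Trim30a (-0.83 ± 0.21) did not pass without juvenile LPS replicate 1 or 4, adult control replicate 3 or 4 or adult LPS replicate 3 or 4 (0.05 to 0.068). Gbp2 (-1.40 ± 0.39) passed only when juvenile LPS replicate 2 or adult control replicate 4 was the array left out (0.054 to 0.086 otherwise). Ifit1 differed by -0.81 without passing, and its 95% interval ran from -1.39 to -0.23. Rsad2 had a positive value of 0.64 that did not pass (adjusted p = 0.29), and its other kept probe sets gave -0.02 and 0.32. The summed intensity of 9 neutrophil markers also differed between the ages. It was 7190 to 8850 in juvenile and 21500 to 35800 in adult LPS lungs, and 1100 to 4170 and 2990 to 24100 in the controls. Most of it was S100a8 (LPS group means 3640 in juveniles and 11500 in adults) and S100a9 (3290 and 11200). After LPS the mean of Camp was lower in adults (34.5 against 39) and those of the other markers were higher. The part of neutrophils in the age difference was not tested.

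**Figure D4:**
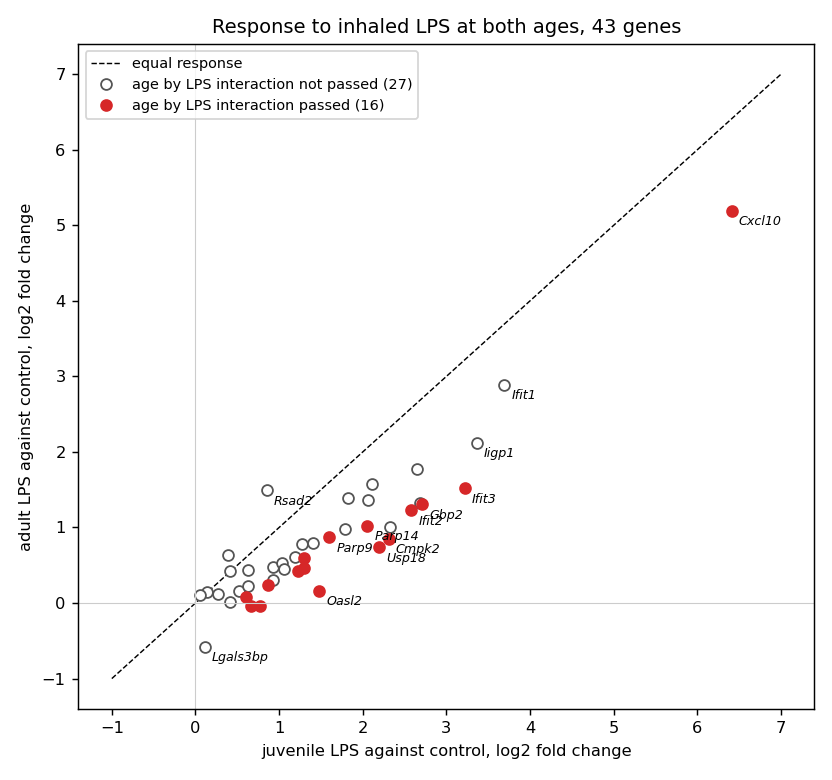
Log2 fold change of LPS against control in juveniles (horizontal axis) and adults (vertical axis) for the 43 genes, with the line of equal response dashed; red points passed the test of the age by LPS interaction. Of the 43 points, 38 lie below the line, all 16 red ones among them, and Rsad2 is among the 5 above it.

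Ventilation alone left most of the genes near control level in juveniles. There 1 of 43 rose, 3 fell and 39 did not pass, with a median of -0.01, against 4.41% and 6.45% of all genes rising and falling. Ifit3 read 405, 497 and 269 on the juvenile MV arrays, all above its controls, a rise of 0.70 ± 0.22 (limma, adjusted p = 0.037). Without both arrays with bright Cxcl9 it was 0.52 and did not pass (adjusted p = 0.20). Rsad2 fell to 716, 716 and 1040, under every control, a change of -0.93 ± 0.24 that did not pass without MV replicate 1 (adjusted p = 0.059) or 2 (adjusted p = 0.051). Ifi35, a leucine zipper protein of the interferon response, fell from 1090, 1080, 1160 and 1040 to 681, 897 and 707 (-0.51 ± 0.11). Its probe set may also bind related transcripts. Isg20 passed as lower (-0.50 ± 0.14) although its groups overlapped, and lost its call without the bright Cxcl9 arrays (adjusted p = 0.13). When the fit held only the groups compared, none of these 4 calls passed, with adjusted p-values of 0.061 to 0.21.

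In adults, ventilation lowered 13 of 43 members and raised 0, with a median of -0.19, where 24.3% of all genes fell and 7.17% rose. Of the genes called, 3185 fell and 938 rose, a split that became 2180 and 1545 under quantile normalization. The share of members that fell, 13 of 43, was thus near that of all genes. Rsad2 again showed the largest fall, from 454, 353, 671 and 569 to 223, 333, 205 and 215, with no overlap (-0.96 ± 0.22, limma, adjusted p = 0.0016). Tor3a fell from 205, 207, 204 and 200 to 138, 148, 147 and 159, a change of -0.39 ± 0.08. Samd9l, an antiviral translation inhibitor, fell from 482, 445, 474 and 451 to 346, 345, 259 and 271 (-0.57 ± 0.12). In each of these 3 genes all MV arrays lay below all controls. The other genes that fell were Cmpk2, Oasl2, Trim30a, Trim21, Epsti1, Parp12, Zbp1, Parp14, Dtx3l and Dhx58, by 0.30 to 0.70. Markers of some other cell types fell with ventilation in adults too, without overlap. For 6 alveolar type 1 cell markers the summed intensity was 28800 to 30700 in controls and 22100 to 24500 with MV. For 3 B cell markers it was 649 to 902 and 262 to 415, and for 3 red cell markers 1690 to 2170 and 699 to 1020. Of these, 4 of 6, 3 of 3 and 3 of 3 passed as lower. The summed intensity of alveolar type 2 cell markers rose without overlap, from 45100 to 48300 in controls to 48500 to 50600 with MV. Within that sum the group means of Sftpb and Abca3 were lower with MV and those of the others higher. Their part in the result was not tested. All 4 adult MV arrays carried the female pattern and no control did. With a term for that pattern 5 of 43 members passed. Calls over all 13089 genes dropped as well, to 1339 that fell and 373 that rose. Among the members, the calls of Cmpk2, Zbp1, Trim21, Trim30a, Parp12, Parp14, Dtx3l and Epsti1 ended (adjusted p of 0.053 to 0.48). Zbp1 also lost its call without the bright Cxcl9 arrays (adjusted p = 0.065). Those of Zbp1, Dtx3l and Epsti1 also ended under quantile normalization (adjusted p of 0.069 to 0.14) and without single arrays, as did that of Trim30a. Adult control replicate 3 ended all 4 of these, MV replicate 3 those of Zbp1 and Dtx3l, control replicate 1 and MV replicate 4 those of Dtx3l and Epsti1, MV replicate 1 that of Epsti1, and control replicate 4 and MV replicate 2 that of Dtx3l (adjusted p of 0.054 to 0.11). Of the test that the ventilation effect differed between the ages, Parp14 alone passed (-0.64 ± 0.18, limma, adjusted p = 0.029), against 4.84% of all genes in that direction and 1.3% in the other, and it lost its call without both bright Cxcl9 arrays (-0.52, adjusted p = 0.11), without juvenile MV replicate 2 (-0.47, adjusted p = 0.13), and without adult control replicate 1 or 2 or adult MV replicate 3 or 4 (0.051 to 0.07).

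LPS followed by ventilation also raised most members. Against controls, 31 of 43 rose in juveniles (median 0.71) and 25 in adults (median 0.41), against 10.8% and 14.8% of all genes. No juvenile member fell, against 20.5% of all genes. In adults Tor3a (-0.27), Dhx58 (-0.25) and Ifi35 (-0.25) fell, against 27.3% of all genes. Dhx58 lost its call without control replicate 3 or LPS+MV replicate 1, Tor3a without LPS+MV replicate 2, and Ifi35 without control replicate 1, 3 or 4 or LPS+MV replicate 2 or 4 (adjusted p of 0.052 to 0.16). Without both bright Cxcl9 arrays Dhx58 (adjusted p = 0.09) and Ifi35 (adjusted p = 0.079) did not pass. The mean over its probe sets gave -0.10 for Ifi35 (adjusted p = 0.45). Against ventilation alone, 32 rose in juveniles and 29 in adults, against 6.93% and 12% of all genes. None fell at either age, against 7.78% and 5.34% of all genes.

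Set against LPS alone, the added ventilation lowered 14 of 43 members in juveniles and raised 0, with a median of -0.40. Of all genes 9.45% fell and 5.97% rose. The summed intensity of 9 neutrophil markers moved with it, from 7190 to 8850 with LPS to 16300 to 17200 with LPS+MV. S100a8 (group means 3640 and 7870) and S100a9 (3290 and 6470) made up most of it, and 3 of the 9 passed as higher. The summed intensity of 10 monocyte and macrophage markers went from 18900 to 19900 to 16600 to 16900, and 1 of the 10 passed as lower. Most of this sum was Lyz2 (group means 13600 and 12100) and Chil3 (4530 and 3480). The group means of Ccr2, Siglecf, Mrc1, Cd68 and Itgam were higher with LPS+MV, and those of the other markers lower. The part of neutrophils, monocytes and macrophages in the result was not tested. Parp9, a partner of Dtx3l, read 799, 656, 811 and 831 on LPS arrays and 404, 486 and 331 on LPS+MV arrays, with no overlap (-0.89 ± 0.13, limma, adjusted p = 4.3e-05). Parp12 went from 397, 364, 451 and 468 to 226, 260 and 184, which is near its control range of 206 to 254 (-0.83 ± 0.11, limma, adjusted p = 1.4e-05). Ifi35 went from 1750, 1500, 1770 and 1840 to 1030, 1110 and 815 (-0.79 ± 0.11, limma, adjusted p = 1.3e-05). All 3 genes had every LPS+MV array below every LPS array.

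Usp18 went from 623, 446, 737 and 781 to 332, 436 and 259, a fall of 0.86 on the log2 scale. Herc6, the ubiquitin ligase that attaches ISG15 in mice, fell by 0.79, and the highest of its LPS+MV values, 126, lay just above the lowest LPS value, 124. Xaf1 (-0.64), Trim21 (-0.56), Parp14 (-0.55), Oasl1 (-0.53), Trim30a (-0.52), Samd9l (-0.48), Dhx58 (-0.45), Bst2 (-0.39) and Tor3a (-0.33) also fell. Leaving out LPS+MV replicate 3 ended the calls of Xaf1, Trim21, Samd9l, Trim30a and Bst2 (adjusted p of 0.09 to 0.22), and LPS+MV replicate 1 those of Oasl1, Tor3a and Bst2 (0.087 to 0.22). LPS replicate 3 ended those of Samd9l, Oasl1, Trim30a and Bst2, LPS replicate 4 those of Oasl1, Trim30a and Bst2, LPS replicate 1 those of Trim30a and Bst2, and LPS+MV replicate 2 that of Bst2 (0.054 to 0.11). With a term for the Xist pattern the calls of Bst2 (adjusted p = 0.13), Trim21 (adjusted p = 0.065) and Trim30a (adjusted p = 0.11) ended. Without LPS replicate 2, the lowest LPS array, 21 members passed. Parp14 lost its call with the mean over its probe sets (-0.12, adjusted p = 0.34). Parp9, Parp12, Ifi35, Usp18, Herc6 and Dhx58 passed under every alternative run and without each single array.

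Other strong responders to LPS did not pass as lower. Ifit1 read 2360, 2730 and 3290 with LPS+MV, within or above the range with LPS alone, a difference of 0.27 (95% interval -0.18 to 0.71). Cxcl10 read 3780, 5500 and 3760, a difference of -0.02 (95% interval -0.51 to 0.47). Rtp4 read 1780, 1770 and 1480, a difference of 0.12 (95% interval -0.29 to 0.53). The intervals of Ifit1, Cxcl10 and Rtp4 leave out a fall of the size seen for Parp9, Parp12 and Ifi35. Irgm1 (0.10), Mx2 (-0.01) and Ifih1 (-0.13) did not pass either, and their values overlapped those with LPS alone. For Ifit3 (-0.53), Cmpk2 (-0.55), Gbp2 (-0.67) and Ifi47 (-0.63) the 95% intervals lay below 0 without an adjusted p under 0.05.

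In adults, 4 of 43 members were lower with LPS+MV than with LPS, 0 were higher, and the median was -0.11, against 3.35% of all genes falling and 3.69% rising. Ifi35 went from 1290, 1450, 1550 and 1460 to 1140, 975, 1110 and 905 (-0.47 ± 0.10, limma, adjusted p = 0.004). Samd9l went from 668, 682, 693 and 682 to 500, 451, 472 and 445 (-0.52 ± 0.12, limma, adjusted p = 0.0094). Dhx58 (-0.33 ± 0.09) and Zbp1 (-0.48 ± 0.15) were the others. Groups were separate for Ifi35, Samd9l and Dhx58 and overlapped for Zbp1. Dhx58 lost its call without LPS replicate 2 or 3 (adjusted p of 0.062 to 0.085), and Zbp1 without any adult LPS or LPS+MV array except LPS replicate 1 (0.053 to 0.15). With a term for the female pattern 1 of the 4 members passed, Ifi35. Over all genes the calls also dropped with that term, from 922 to 246. Dhx58, Ifi35 and Samd9l fell at both ages, 21.4% of the juvenile and 75% of the adult set. Of the 14 genes lower in juveniles, 7 were also among the 13 that adult ventilation alone lowered, where 24.3% of all genes fell. The same overlap over all genes was not counted. These comparisons share no array, but in both the ventilated group held high-Xist arrays and the other group held none. Whether the effect of ventilation on top of LPS differed between the ages was not tested.

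**Figure D5:**
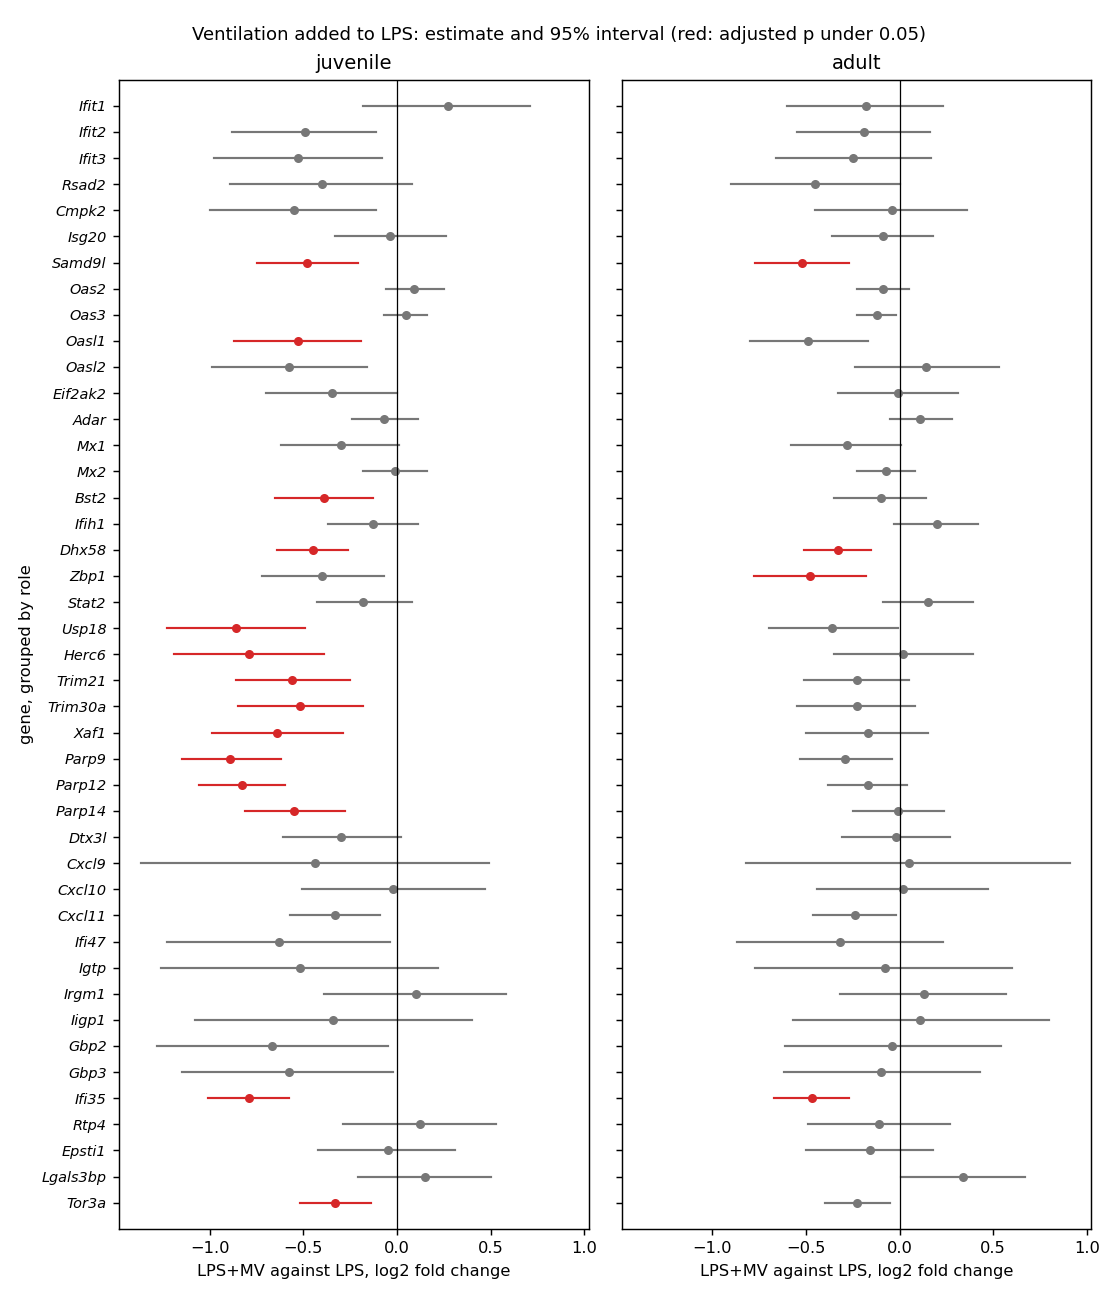
Log2 difference between LPS+MV and LPS (horizontal axis) with its 95% interval for the 43 genes (vertical axis, grouped by role), juveniles at left and adults at right; red marks an adjusted p under 0.05. Of the 43 genes, 14 are red at left and 4 at right, all below 0, and the points of Ifit1, Rtp4 and Irgm1 lie at or above 0 in juveniles.

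The interaction of LPS and ventilation asks whether the joint effect departs from the sum of the single ones on the log2 scale. In juveniles Parp9 (-0.79 ± 0.18) and Parp14 (-0.76 ± 0.18) passed as lower, against 0.413% of all genes, and none as higher, against 0.336%. Both calls ended without the 2 arrays with bright Cxcl9 (adjusted p of 0.15 and 0.16). Parp9 also lost its call without 8, and Parp14 without 9, of the 14 juvenile arrays when these were left out singly (adjusted p of 0.05 to 0.15). In adults Lgals3bp passed as higher (0.73 ± 0.23, limma, adjusted p = 0.049), against 5.5% of all genes (1.66% passed as lower), and lost its call when any of 13 single arrays was left out (adjusted p of 0.054 to 0.11), and without both bright Cxcl9 arrays (adjusted p = 0.056).

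The response to LPS+MV was also smaller in adults for 5 members, against 1.25% of all genes, and larger for none, against 0.856%. These were Ifit1 (-1.26 ± 0.29), Ifit2 (-1.05 ± 0.26), Ifit3 (-1.41 ± 0.30), Usp18 (-0.95 ± 0.25) and Tor3a (-0.59 ± 0.12). Ifit1 read 1030, 976, 1850 and 1190 on adult LPS+MV arrays, all below the 3 juvenile ones. Ifit1 lost its call without juvenile control replicate 1 or juvenile LPS+MV replicate 3, Ifit2 without juvenile control replicate 1, juvenile LPS+MV replicate 2, adult control replicate 2 or adult LPS+MV replicate 1 or 2, and Usp18 without 11 of 15 arrays (adjusted p of 0.05 to 0.11) and without both bright Cxcl9 arrays (adjusted p = 0.058). This comparison and the age by LPS interaction share the control arrays.

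Other genes of the pathway were taken from fixed lists that hold none of the 43. Of the interferons, Ifna1 and Ifna2 could be tested and neither passed with LPS at either age, and Ifnb1, Ifna4, Ifna5 and Ifng stayed too dim to test. Isg15 was not analysed here. All 11 receptor and JAK-STAT genes rose with LPS in juveniles (median 0.52) and 7 of 11 rose in adults (median 0.31). The juvenile call of Tyk2, a kinase of the receptor (0.22 ± 0.07), ended without the filter (adjusted p = 0.05), with the mean over probe sets (adjusted p = 0.13), with only the groups compared (adjusted p = 0.12) and without 4 of 8 single arrays (0.059 to 0.13). The adult call of Jak1, its partner (0.21 ± 0.07), ended under quantile normalization (adjusted p = 0.053), with the mean over probe sets (adjusted p = 0.40), without the bright Cxcl9 arrays (adjusted p = 0.086) and without 5 of 8 single arrays (0.059 to 0.097). Ifnar1, a chain of the type I interferon receptor, rose by 0.40 ± 0.08 and 0.31 ± 0.08, and Irf9, the DNA-binding subunit of the complex, by 0.78 ± 0.09 and 0.49 ± 0.09.

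Of 8 genes between TLR4 and interferon, 4 rose in juveniles and 6 in adults. Cd14, which hands lipopolysaccharide to TLR4, rose by 4.63 ± 0.11 in juveniles and 3.98 ± 0.11 in adults. Irf7, the factor that amplifies interferon production and is itself an interferon target, rose by 1.16 ± 0.13 in juveniles and 0.50 ± 0.13 in adults. Its age by LPS interaction was -0.66 ± 0.18 (limma, adjusted p = 0.034) and did not hold without the 2 arrays with bright Cxcl9 (adjusted p = 0.078). Of 5 inhibitors of the pathway, 3 rose in juveniles and 2 in adults. Socs3, a suppressor of cytokine signalling, rose by 2.82 ± 0.29 and 2.61 ± 0.29. Ptpn2, a phosphatase of JAK and STAT proteins, ran against the members, with the larger rise in adults (2.13 ± 0.09 against 1.47 ± 0.09, interaction 0.65 ± 0.12, limma, adjusted p = 0.0026).

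The response was also set beside the promoter motifs. With LPS in juveniles, the median was 1.30 for the 15 members with an ISRE core and 1.15 for the 16 without one, and in adults it was 0.98 and 0.58. For LPS+MV against LPS in juveniles it was -0.39 with and -0.51 without an ISRE core. For the 4 members with the NF-kB motif and the 27 without it the LPS medians were 2.65 and 1.27 in juveniles and 1.27 and 0.53 in adults. For the 7 with the GAS motif and the 24 without it they were 0.52 and 1.35 in juveniles and 0.42 and 0.79 in adults. These medians describe the 31 members with a promoter in the table and were not tested.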

How the data were processed

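Total RNA of 30 whole lungs was hybridized to Affymetrix mouse 430 2.0 arrays, per the labels' protocols. The deposited values are probe set intensities on a linear scale that the authors had normalized between arrays by a method not given in the sources used here. MAS5 is the only tool in the submitters' processing notes, but the low tail usual of its signals is missing, so the summarisation is not settled. Array medians ran from 21.6 to 22.8 and upper quartiles from 89.1 to 111. The number of arrays limits the precision, and background is part of each intensity.

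Probe sets above their array's median on at least 3 arrays were kept (24825 of 45037; 68 of 74 for the members). Each gene was read from its probe set with the highest mean. Symbols came from the platform annotation. Values were log2(intensity + 32), modelled with limma 3.58.1 under R 4.3.3 (linear model, moderated variances with a trend), 1 mean per group over all 30 arrays, with 22 residual degrees of freedom and 16 comparisons. Tests were two-sided, adjusted by Benjamini-Hochberg within a comparison. The fit was tested on simulated data. Alternatives were quantile normalization, 1 added in place of 32, no filter, the mean over probe sets, only the groups compared, the replicate number as a block, a term for the Xist pattern, and each array left out. The fit without the 2 arrays with bright Cxcl9 was added after seeing the data. Array values, their ranges or fitted changes are given for 22 members, those with the smallest p per role in LPS against control and the 3 with the smallest p that passed in each other comparison, and for members added to complete a role. The members and all lists were chosen with earlier results of these data known. Sex, litter and batch are not in the labels used here. Figures were drawn with matplotlib.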

Additional observations from a re-analysis of the deposited data

Results flagged for a closer look

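Single arrays lay apart from the other 3 of their group for 15 of 132 groups of 4 examined over 22 members, by a gap test that chance alone would trip in about 1 in 20 groups. Juvenile LPS replicate 2 was low for Ifit1 (intensity 1430 against 2610 to 2740), Ifi47 (1760 against 2540 to 2710), Isg20 (958 against 1210 to 1270) and Parp9 (656 against 799 to 831). Adult LPS replicate 1 was low for Ifit1 (1000 against 1500 to 1610), Ifih1 (427 against 544 to 561), Rsad2 (1010 against 1600 to 1720) and Parp12 (256 against 281 to 287). Adult LPS+MV replicate 3 was high for Cxcl10 (3240 against 1920 to 2030). Among controls, Ifit1 was low on adult replicate 4 (133 against 169 to 173), Oasl1 on juvenile replicate 1 (21.2 against 30.2 to 30.5) and Lgals3bp on juvenile replicate 2 (227 against 361 to 372), and Parp12 was high on adult replicate 1 (332 against 271 to 274). With adult ventilation, Rsad2 was high on replicate 2 (333 against 205 to 223) and Lgals3bp low on replicate 3 (316 against 377 to 388).

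The response differed between the ages, by the interaction test of the limma fit, in 22 cases, all with the lower adult value. For LPS the differences were -1.69 for Ifit3, -1.46 for Cmpk2, -1.45 for Usp18, -1.40 for Gbp2, -1.35 for Ifit2, -1.32 for Oasl2, -1.22 for Cxcl10 and -1.03 for Parp14. Smaller ones were seen for Trim30a (-0.83), Parp12 (-0.82), Trim21 (-0.80), Parp9 (-0.73), Ifih1 (-0.72), Tor3a (-0.70), Stat2 (-0.64) and Dhx58 (-0.53). For LPS+MV they were -1.41 for Ifit3, -1.26 for Ifit1, -1.05 for Ifit2, -0.95 for Usp18 and -0.59 for Tor3a. For MV alone the difference was -0.64 for Parp14.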

How the results depend on the processing

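Of 262 values of the members that passed, none changed sign under any alternative, and 3 lost their call with the replicate number as a block, 5 with 1 added in place of 32, 7 under quantile normalization, 9 without the filter, 11 with the mean over probe sets, 15 without both arrays with bright Cxcl9, 23 with only the groups compared in the fit and 27 with a term for the Xist pattern. With 1 array left out, 215 of 2173 refitted values lost their call. In most comparisons the count of members that passed moved by at most 1.5 times. The exceptions follow, and the cause was not tested. For juvenile MV against control the count of 4 was 0 with only the groups compared. For the juvenile interaction of LPS and MV it was 2 and became 1 with 1 added, without the filter or with the mean over probe sets, and 0 with only the groups compared, with the Xist term or without the bright Cxcl9 arrays. For adult MV against control it went from 13 to 5 with the Xist term, where the calls over all genes went from 4123 to 1712. For adult LPS+MV against LPS it went from 4 to 1 with that term, where the calls over all genes went from 922 to 246. For the adult interaction of LPS and MV it was 1, became 0 under quantile normalization, with 1 added, without the filter or without the bright Cxcl9 arrays, and 2 with the mean over probe sets or only the groups compared. For the age by MV interaction it was 1 and became 2 with 1 added, with the mean over probe sets or only the groups compared, and 0 with the Xist term or without the bright Cxcl9 arrays. For the age by LPS+MV interaction the count of 5 was 3 with only the groups compared.

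With each array left out in turn the counts ranged from 9 to 16 between the controls, 1 to 4 for juvenile MV, 36 to 39 for juvenile LPS, 30 to 32 for juvenile LPS+MV, 10 to 21 for juvenile LPS+MV against LPS, 27 to 37 against MV and 0 to 6 for the juvenile interaction. In adults they ranged from 9 to 13 for MV, 27 to 31 for LPS, 25 to 27 for LPS+MV, 2 to 6 for LPS+MV against LPS, 27 to 30 against MV and 0 to 1 for the interaction. For age by MV, LPS and LPS+MV they ranged from 0 to 4, 12 to 20 and 2 to 6.

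Replicate numbers were not treated as pairs in the main fit. Over 99 pairs of arrays with the same number the median correlation of deviations from group means was 0.03 (-0.23 to 0.42). Over 294 pairs with different numbers it was -0.01 (-0.49 to 0.43). Of 30 arrays, 11 correlated best with an array of their own number. These values do not settle whether the numbers pair the animals. With the replicate number as a block, 37 members rose with LPS in juveniles and 15 fell with LPS+MV against LPS. Adding 1 in place of 32 raised the fold change of the dim genes Mx1, Mx2, Cxcl9, Cxcl11 and Dhx58 with LPS by over 1.5 times in juveniles, and signal near background limits what can be said of them and of Oas2 and Oas3.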

Other observations

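Members not described above moved in several ways. Gbp3, a guanylate-binding protein, rose with LPS by 1.79 ± 0.26 in juveniles and 0.98 ± 0.26 in adults. Adar, the enzyme that edits adenosine in double-stranded RNA, rose in juveniles (0.52 ± 0.08) and had a value of 0.16 ± 0.08 in adults that did not pass. Eif2ak2, the double-stranded RNA-dependent kinase PKR, had 0.42 ± 0.16 in adults, which passed, and 0.41 ± 0.16 in juveniles, which did not. Its 2 other probe sets went the other way, passing in juveniles (0.91 and 0.34) and not in adults (0.16 and 0.05). The adult call ended with the mean over probe sets (adjusted p = 0.087), without both bright Cxcl9 arrays (adjusted p = 0.069; 0.07 for LPS+MV), and without control replicate 1, 3 or 4 or LPS replicate 2, 3 or 4 (adjusted p of 0.057 to 0.16). Epsti1 did not pass with LPS at either age (0.41 ± 0.17 and 0.02 ± 0.17).

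The members' other probe sets were also read. Of 68 kept probe sets of the 43 genes, 59 rose and 0 fell with LPS in juveniles, and 41 rose and 1 fell in adults. For LPS+MV against LPS in juveniles, 23 fell and 2 rose. Such counts were not made over all kept probe sets, and probe sets of the same gene are not independent. The 2 that rose belonged to Adar and Parp14 and were the dimmest of their genes, with mean intensities of 23 and 17.5. The dimmest of the 3 Adar probe sets rose by 0.68, the next fell by 0.37, and the brightest, at -0.07, did not pass. The 3 probe sets of Ifi35 fell together, by 0.79, 0.74 and 0.45.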
